A study of Mus musculus with 12 samples.

Results

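H19 and 9 other imprinted genes that act on growth were followed in RNA-seq of mouse colon tumors and small intestinal crypts, each with and without ieCtnnb1, an intestinal enhancer of Ctnnb1, the β-catenin gene. The 10 genes were taken by name from the 54532 genes of each table: H19, Igf2, Igf2r, Cdkn1c, Dlk1, Meg3, Peg3, Plagl1, Grb10 and Mest. The list was chosen by the tumor values of H19, which were far higher in the knockout libraries, so these values are a description and carry no test. Of the 10 genes, 9 passed a filter on low values in tumors (a mean of at least 0.5 FPKM, fragments per kilobase of exon scaled to library depth) and 2 passed it in crypts.

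The crypts came from the small intestine of 3 wild-type and 3 ieCtnnb1KO replicates, all adult and untreated. The colon tumors came from 3 APCmin/+ replicates and 3 APCmin/+;ieCtnnb1KO replicates of mice labelled adult, at an age of 5 months. The knockout is a homozygous germline deletion of the enhancer made with CRISPR/Cas9 on a C57BL/6 background, so every cell of these mice lacks it, stroma included. Both tumor groups carry the Apc Min allele, and the tumor controls are therefore called APCmin/+ here, although their sample titles name them wild type. Crypts were released with EDTA and passed through a filter without sorting, and tumors were used as whole tissue. The labels do not name the animals, while the study counts mice in each group and calls its replicates biological. The p-values measure the spread between these libraries. Between 14457896 and 16156712 fragments fell on genes in each library.

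Imprinted genes are read mainly from a single parental copy, because methylation set in the egg or the sperm silences the other. H19, a noncoding RNA made from the maternal copy, lies beside Igf2, a growth factor gene read from the paternal copy, and they share enhancers, with a control region bound by CTCF between the genes deciding which of them is reached. As a rule, imprinted genes read from the paternal copy favour fetal growth and those read from the maternal copy restrain it, most are high in the embryo and fall after birth, and loss of IGF2 imprinting is a known feature of human colorectal cancer.

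The gene whose enhancer was deleted was read first. Ctnnb1 stood at 299, 363 and 358 FPKM in APCmin/+ tumors and at 279, 248 and 250 FPKM in APCmin/+;ieCtnnb1KO tumors. In crypts it stood at 120.6, 134 and 122.7 FPKM in wild-type and at 102, 104 and 105 FPKM in ieCtnnb1KO libraries. All 6 knockout libraries lay below the controls of their own tissue. The log2 difference, taken throughout as knockout minus control on log2(FPKM + 0.5), was -0.39 ± 0.13 (SE from limma, n = 3 against 3) in tumors and -0.28 ± 0.12 in crypts. Neither passed the limma test after Benjamini-Hochberg adjustment over all tested genes (adjusted p = 0.303 in tumors and 0.849 in crypts).

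H19 (ENSMUSG00000000031) lies on the minus strand at chr7:142575529-142578143 (GRCm38). In APCmin/+ tumors it had 3.82, 1.996 and 2.77 FPKM, from 152, 81 and 102 fragments. In APCmin/+;ieCtnnb1KO tumors it had 10.4, 16.1 and 18.6 FPKM, from 412, 637 and 714 fragments. Every knockout tumor library lay above every control, and the lowest knockout value was well above the highest control. The means were 2.86 ± 0.914 and 15.1 ± 4.21 FPKM (SD, n = 3 each), a ratio of 5.26, and the log2 difference was 2.21. With each library left out in turn this difference lay between 2.01 and 2.44. By level per length, H19 lay below Plagl1 in the means of APCmin/+ tumors (2.86 against 7.01 FPKM) and above it in those of APCmin/+;ieCtnnb1KO tumors (15.1 against 3.65 FPKM).

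H19 is also the host of miR-675, a microRNA cut from an exon of H19. Its mature forms are shown because they are the known product of the RNA that stood apart in these tumors. Both come from the minus strand in GRCm38.p6 (RefSeq), miR-675-5p from chr7:142577112-142577133 and miR-675-3p from chr7:142577078-142577099, and the capitals mark the seed, bases 2 to 8, which pairs with target RNAs.
mmu-miR-675-5p: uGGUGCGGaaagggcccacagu
mmu-miR-675-3p: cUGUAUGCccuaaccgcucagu
The different seeds give the arms different targets. Mir675 was listed at 0 in all 12 libraries, in knockout tumors as well. All of its bases lie inside the H19 exon and the libraries were not made for small RNA, so the 0 says nothing about the level of miR-675.

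Features that differ between the tumor libraries were set beside H19. Xist, the RNA of the silenced X chromosome of females, was at 114 FPKM in APCmin/+ replicate 3 and 61.4 FPKM in APCmin/+;ieCtnnb1KO replicate 3, and under 0.1 FPKM in the other 4 tumor libraries, so each group held 1 library that expressed it. Without those 2 libraries, an alternative chosen after seeing the data, the log2 difference of H19 was 2.04. Hoxd13, a homeobox gene of the hindmost gut, split the libraries within both groups, with 0.0746, 65.7 and 63.0 FPKM in APCmin/+ tumors and 2.85, 0.176 and 42.5 FPKM in APCmin/+;ieCtnnb1KO tumors. High and low values of Hoxd13 occurred in both groups, and its part in the H19 result was not tested.

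Markers of other cell types also differed between the tumor groups, and their part in the H19 result was not tested. Among 10 fibroblast markers, 3 were higher in knockout tumors without overlap (Col1a1, Dcn and Pdgfra), beside 11.4% of all tested genes, and 2 once rescaled to the same total, where Col1a1 overlapped. All 9 that passed the filter had differences above 0, beside 8586 of the 16743 tested genes, with a median log2 difference of 0.52. At an unadjusted limma p below 0.05 were 6 of the 9, all higher, beside 8.46% of all tested genes. Their sum was 383, 242 and 234 FPKM in APCmin/+ and 382, 508 and 400 FPKM in APCmin/+;ieCtnnb1KO tumors, so the sums overlapped through a single control library, and the most abundant marker, Col1a1, had 137, 81.6 and 68.5 FPKM against 144, 151 and 143 FPKM. The 10 smooth muscle and pericyte markers, led by Acta2, summed to 190, 195 and 157 FPKM against 217, 199 and 218 FPKM. Of these, 3 were higher without overlap, beside 11.4% of all tested genes. Their directions were mixed, with 7 differences above 0 and 3 below, those of Cnn1 (-0.27), Des (-0.18) and Actg2 (-0.01). Of 9 epithelial markers 8 were higher without overlap, led by Krt8, beside 11.4% of all tested genes, and 5 once the libraries were rescaled to the same total, beside 8.63%. At an unadjusted limma p below 0.05 were 2 of the 9, both higher. Their sum was 4267, 4282 and 3735 FPKM in controls and 5024, 4925 and 5180 FPKM in knockout tumors. The 11 immune markers summed to 216, 438 and 310 FPKM against 213, 133 and 197 FPKM, most of it from the neutrophil genes S100a8 and S100a9. These were the only 2 lower without overlap, beside 10.6% of all tested genes. Of the 8 immune markers past the filter, 4 had differences above 0 and 4 below, with a median of -0.04. In bulk tissue, fewer cells of a type and less RNA per cell cannot be told apart.

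**Figure D1:**
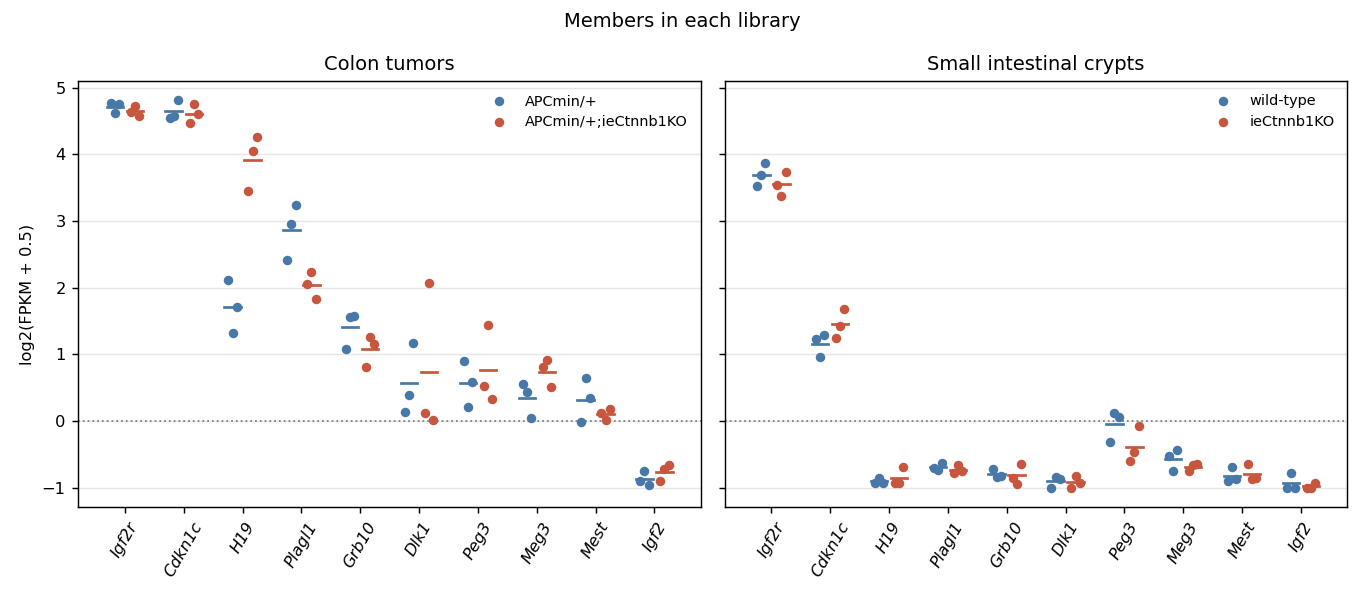
Level of each of the 10 genes in each library as log2(FPKM + 0.5), in colon tumors (left) and small intestinal crypts (right), with controls in blue, knockouts in red, a point per library, a bar for the group mean, and a dotted line at 0.5 FPKM. In tumors H19 is higher and Plagl1 lower in all 3 knockout libraries, while Dlk1 has a single high knockout library at 3.71 FPKM; in crypts only Igf2r and Cdkn1c lie clearly above the line.

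Igf2, the growth factor that shares its enhancers with H19, had low values in both tissues, counted over its full exon length. It had 0.0324, 0.0953 and 0.0117 FPKM in APCmin/+ tumors, from 3, 9 and 1 fragments, and 0.0326, 0.109 and 0.134 FPKM in APCmin/+;ieCtnnb1KO tumors, from 3, 10 and 12 fragments. The groups overlapped, with 13 fragments in all controls (95% exact Poisson interval 6.92 to 22.2) and 25 in all knockouts (16.2 to 36.9). The intervals cover counting error only. In crypts, wild-type libraries held 0, 7 and 0 fragments of Igf2 and ieCtnnb1KO libraries 0, 0 and 2. No test was made, since Igf2 did not reach the filter in either tissue.

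Low values of Igf2 do not show absence of its RNA, since most of its exon bases are shared with other genes and how the counting treated such bases is not given in the sources used here. In the GENCODE M21 annotation, 3694 of the 5723 exon bases of Igf2 (64.5%) are also exon of another gene, nearly all of them of Gm49394 on the same strand and a few of Igf2os on the opposite strand. The shared part differs between its 9 annotated transcripts, from 40.2% of Igf2-206 to 100% of Igf2-208, and is 97.0% of Igf2-201 and 96.8% of Igf2-202. Genes whose exons are all shared had fragments in these tables less often than other genes. Of 42753 genes with no shared exon base, 53.8% had a fragment in some library. Of 454 genes whose exon bases are all shared with genes of the opposite strand, 3 (0.661%) had, and of 752 whose exon bases are all shared on the same strand, 37 (4.92%) had. Among genes with more than 300 exon bases, as Igf2 has, these shares were 59.7% of 35186 genes with none shared, 1.28% of 235 with all shared on the opposite strand and 18.6% of 194 with all shared on the same strand. Gm49394 was at 0 in all 12 libraries. Whether Igf2 itself followed H19 in these tumors was not detectable from its values. Igf2os, of whose own exon bases 23.2% are shared, was higher in knockout tumors without overlap. This held as deposited, rescaled to the same total and rescaled without the 50 highest genes. Igf2os was under the filter and untested, and its bearing on Igf2 was not tested. The check on shared exons was made after the values were seen.

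**Figure D2:**
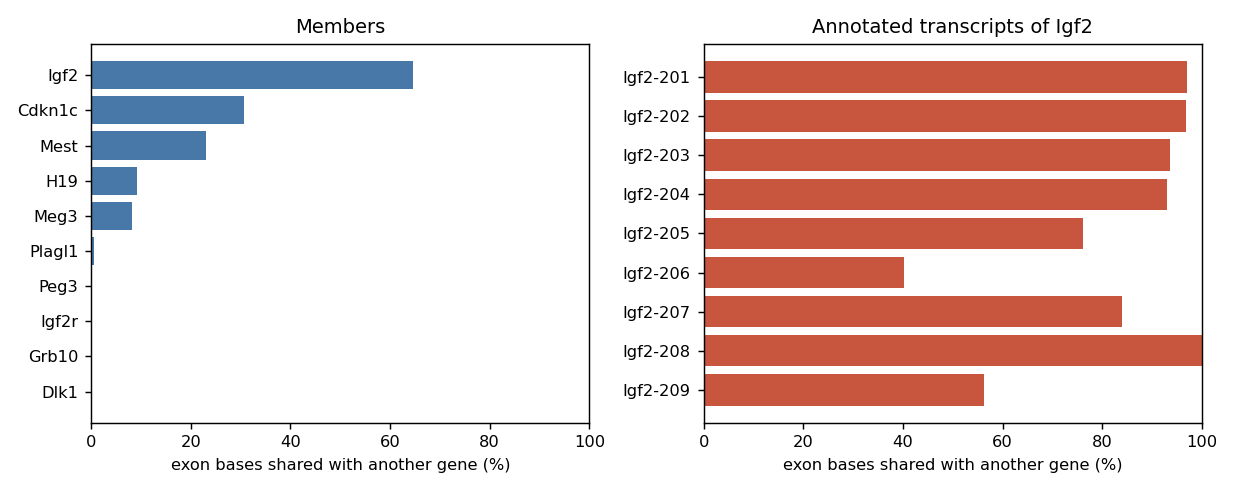
Share of exon bases, in percent, that the GENCODE M21 annotation also gives to another gene, for the 10 genes (left) and for each annotated transcript of Igf2 (right). Igf2 stands first at 64.5%, and its transcripts Igf2-201 and Igf2-202 are shared at 97.0% and 96.8%.

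The other genes were less touched by shared exons. The shared part was 30.7% of Cdkn1c, 23.1% of Mest, where the neighbour Copg2 runs on the opposite strand, 9.15% of H19, 8.29% of Meg3, 0.486% of Plagl1 and none of Igf2r, Dlk1, Peg3 or Grb10. Across the tables, 2562 of 54495 genes (4.70%) share 50% or more of their exon bases.

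The genes around H19 were read by position. The tables list 23 genes within 250 kb of H19, H19 included, of which 8 were at 0 in all 12 libraries, among them Ins2, Mir483 and Gm49394. In tumors 6 genes besides H19 passed the filter, all of them on the side away from Igf2, and 1 had groups that did not overlap, against 22.1% of all 16743 tested genes. That gene was Syt8, which encodes a synaptotagmin, at 11.8, 11.8 and 7.91 FPKM in APCmin/+ and 14.3, 17.1 and 18.9 FPKM in APCmin/+;ieCtnnb1KO tumors. Its start lies at -143 kb from that of H19, negative positions being on the side away from Igf2, and its log2 difference was 0.66 ± 0.18 (SE; limma adjusted p = 0.278). Tnni2, a troponin subunit at -136 kb, had 1.69, 2.83 and 1.79 FPKM against 2.82, 4.58 and 3.21 FPKM, with groups that overlapped narrowly and a log2 difference of 0.64 ± 0.23. Mrpl23, the nearest gene past the filter at -45.5 kb, Lsp1 and Prr33 had log2 differences of 0.27, 0.27 and 0.40 with overlapping groups, and Ctsd, a lysosomal protease at -190 kb, had -0.04. In crypts 3 of these genes passed the filter. Ctsd had 40.8, 44.3 and 46.8 FPKM in wild-type and 56.5, 53.75 and 53.8 FPKM in ieCtnnb1KO crypts, higher without overlap (0.31 ± 0.11, limma adjusted p = 0.806), while Lsp1 (0.05) and Mrpl23 (-0.06) overlapped. Nctc1, a noncoding RNA at -19.5 kb, was between 0 and 0.0584 FPKM in tumors.

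**Figure D3:**
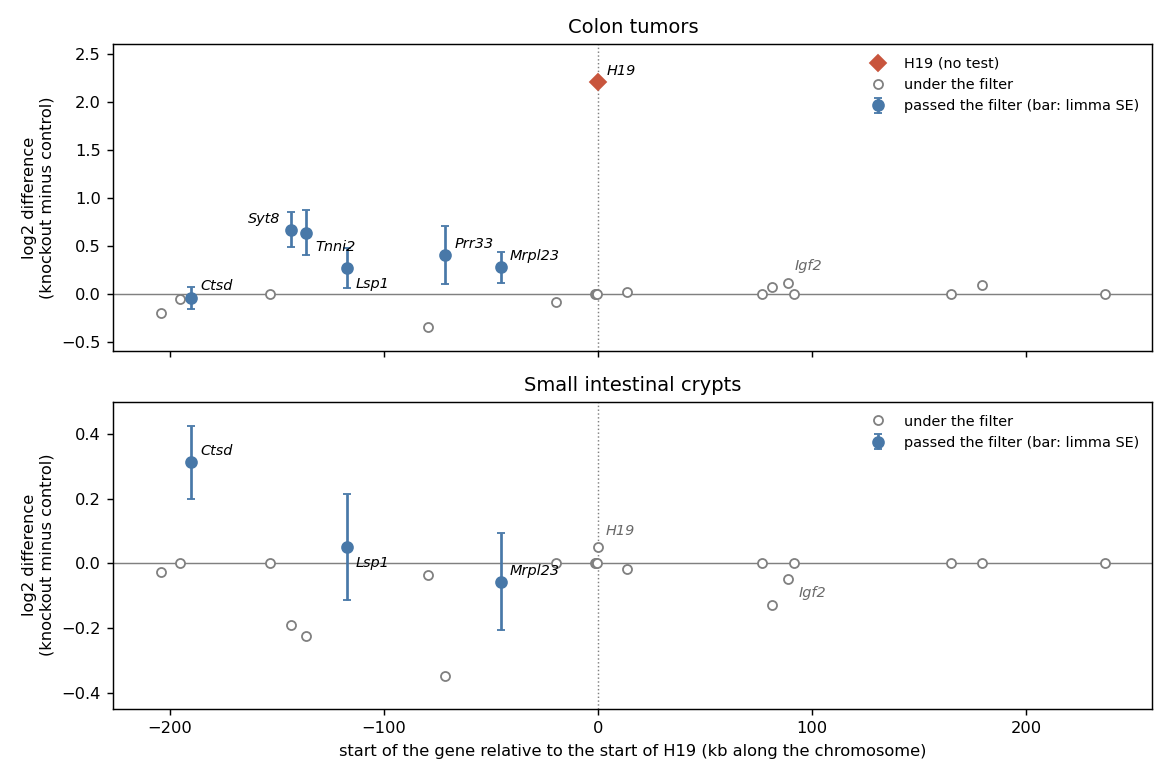
Log2 difference, knockout minus control, of the genes within 250 kb of H19 against the distance of their start from that of H19 in kb, in tumors (top) and crypts (bottom); filled points passed the filter and carry the limma SE, open points did not, and the diamond is H19 without a test. H19 stands at 2.21 in tumors, the next neighbours are Syt8 at 0.66 and Tnni2 at 0.64, and Igf2 on the other side is under the filter.

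Igf2r, Grb10 and Cdkn1c restrain growth and are read from the maternal copy in most tissues. Igf2r, the receptor that clears IGF2 by taking it to lysosomes, had the highest mean of the 10 genes over all tumor libraries, in a range overlapping that of Cdkn1c. It had 26.8, 24.1 and 26.6 FPKM in APCmin/+ and 24.3, 26.0 and 23.5 FPKM in APCmin/+;ieCtnnb1KO tumors. The groups overlapped, and the log2 difference was -0.07 ± 0.08 (95% limma interval -0.27 to 0.13, adjusted p = 0.71). Airn, the noncoding RNA that silences the paternal Igf2r copy, had 4.17, 4.85 and 5.32 FPKM against 2.78, 3.88 and 2.64 FPKM. It was lower in every knockout tumor, with a log2 difference of -0.56 ± 0.17 (limma adjusted p = 0.287), while Igf2r was not.

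Cdkn1c, the cyclin-dependent kinase inhibitor p57, stood beside Igf2r in level, with 23.0, 23.4 and 27.6 FPKM in APCmin/+ and 21.8, 26.5 and 23.8 FPKM in APCmin/+;ieCtnnb1KO tumors. The groups overlapped, with a log2 difference of -0.04 ± 0.11 (95% limma interval -0.30 to 0.23, adjusted p = 0.9); its sign turned to 0.05 without the 2 libraries that express Xist. Grb10, an adaptor that dampens insulin and IGF1 receptors, had 1.60, 2.45 and 2.49 FPKM against 1.24, 1.90 and 1.74 FPKM. Its groups overlapped too, with a log2 difference of -0.33 ± 0.21 (limma adjusted p = 0.477).

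Plagl1, a zinc finger factor known to act on other imprinted genes and to slow the cell cycle, was the only one of the 10 besides H19 whose tumor groups did not overlap. It had 4.86, 7.27 and 8.91 FPKM in APCmin/+ tumors and 3.67, 4.21 and 3.06 FPKM in APCmin/+;ieCtnnb1KO tumors. Every knockout library lay below every control, in the direction opposite to H19, though the highest knockout and the lowest control were close. The means were 7.01 ± 2.04 and 3.65 ± 0.576 FPKM (SD, n = 3 each), the log2 difference was -0.83 ± 0.22 (95% limma interval -1.36 to -0.29), and it did not pass the test (limma adjusted p = 0.275, unadjusted p = 0.00828; exact permutation p = 0.1, the smallest that 3 against 3 allows). Without the 2 libraries that express Xist the log2 difference was -0.54.

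Dlk1, a membrane protein of fetal tissue and preadipocytes read from the paternal copy, and Meg3, a noncoding RNA read from the maternal copy, belong to the same imprinted domain of chromosome 12. Dlk1 had 0.601, 0.814 and 1.74 FPKM in APCmin/+ and 0.582, 3.71 and 0.51 FPKM in APCmin/+;ieCtnnb1KO tumors. A single knockout library, replicate 2, was high, and the log2 difference turned from 0.17 to -0.50 without it. Meg3 had 0.963, 0.851 and 0.529 FPKM against 1.24, 1.38 and 0.918 FPKM, so that only the lowest knockout value lay among the controls (log2 difference 0.40 ± 0.21, limma adjusted p = 0.422). Rian and Mirg, the noncoding RNAs downstream of Meg3, were under the filter and untested. Rian had 0.352, 0.296 and 0.158 FPKM against 0.423, 0.441 and 0.447 FPKM, and Mirg had 0.0424, 0.0166 and 0.0275 FPKM against 0.128, 0.111 and 0.132 FPKM. Both were higher in all 3 knockout tumors, at levels far under those of H19. The share of 11.4% among all tested genes does not cover genes under the filter. Of the 29 imprinted neighbours in the domains of the members, filter or not, 5 were higher without overlap and 1 lower. The 5 were Rian, Dio3, Mirg, Igf2os and Usp29, all under the filter, and the lower was Airn. Those 5 fall outside the rule for named genes and were named after their values were seen.

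Peg3 and Mest are read from the paternal copy, Peg3 as a zinc finger factor of growth and maternal care and Mest as a hydrolase-like protein of mesoderm. Peg3 had 1.37, 0.655 and 0.999 FPKM in APCmin/+ and 0.942, 2.21 and 0.756 FPKM in APCmin/+;ieCtnnb1KO tumors. The highest value was again knockout replicate 2, and without it the log2 difference turned from 0.20 to -0.14. Mest had 0.485, 1.06 and 0.763 FPKM against 0.583, 0.506 and 0.634 FPKM, with overlapping groups and a log2 difference of -0.22 ± 0.23 (limma adjusted p = 0.668). By level, the tumor order was Igf2r and Cdkn1c, whose ranges overlapped, then H19 and Plagl1, whose order differed between the groups, then Grb10, Dlk1, Peg3, Meg3 and Mest, each overlapping the next, and Igf2 last, with the limit on its shared exons. The order is that of means over all 6 libraries, per length of gene.

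Of the 9 genes past the filter in tumors, 1 was higher without overlap, H19, which chose the list, and 1 lower, Plagl1. Over all 16743 tested genes these shares were 11.4% and 10.6%, and 8.63% and 13.8% once the libraries were rescaled to the same total. At an unadjusted limma p below 0.05, 8.46% of all genes were higher, 6.0% lower and 14.5% either, and of the 8 members other than H19, 0 were higher and 1 lower. The share of higher genes among these calls was 58.5%, and 44.4% after the rescaling, so the balance of directions over the table depends on the scaling. No gene passed an adjusted p of 0.05 in limma (0 of 16743, with 2421 at an unadjusted p below 0.05 and 0 adjusted, 2541 unadjusted, by voom). The median log2 difference of the 8 members without H19 was -0.05, beside 0.01 over all tested genes.

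In crypts the imprinted genes were low. H19 had 0.0263, 0.0532 and 0.0259 FPKM in wild-type and 0.025, 0.0243 and 0.116 FPKM in ieCtnnb1KO libraries, from 1, 2 and 1 and from 1, 1 and 4 fragments. The groups overlapped, and the highest value rested on 4 fragments. Pooled over 3 libraries each, this is 4 fragments in wild-type crypts (95% exact Poisson interval 1.09 to 10.2) and 6 in ieCtnnb1KO crypts (2.2 to 13.1). The upper ends equal 0.0896 and 0.113 FPKM for the pooled libraries. They cover counting error only, and ieCtnnb1KO replicate 3 alone was at 0.116 FPKM. The difference seen in tumors was thus not detectable at this depth in crypts, where H19 was hardly expressed in either group. The tables of the tissues were scaled separately, so levels are set side by side only to show their order of size.

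Igf2r was also the most abundant of the 10 in crypts, with 11.0, 12.4 and 14.1 FPKM in wild-type and 11.2, 9.93 and 12.9 FPKM in ieCtnnb1KO libraries. The groups overlapped (log2 difference -0.14 ± 0.15, limma adjusted p = 0.918). Cdkn1c had 1.84, 1.44 and 1.94 FPKM against 1.87, 2.196 and 2.69 FPKM, with 2 of 3 knockout values above all controls (0.29 ± 0.17, limma adjusted p = 0.89). Peg3, under the filter, had 0.301, 0.589 and 0.546 FPKM against 0.157, 0.224 and 0.443 FPKM. The remaining 7 genes, H19 and Igf2 among them, were at 0.24 FPKM or less in every crypt library. None of the 10 genes had crypt groups that did not overlap, beside 6.79% higher, 5.15% lower and 11.9% in either direction of the 14176 tested genes. At an unadjusted limma p below 0.05 were 0 of the 2 tested members, beside 3.48% of all genes higher, 2.36% lower and 5.85% in either direction. The share of higher genes among those calls was 59.6%, and 39.7% when the libraries were rescaled without the 50 highest genes. In limma 0 crypt genes passed adjustment, with 829 at an unadjusted p below 0.05, and by voom 0, with 805.

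Whether the knockout acted differently in the tissues could be tested for Igf2r and Cdkn1c alone. The tumor difference minus the crypt difference was 0.07 ± 0.16 for Igf2r (95% limma interval -0.29 to 0.43, adjusted p = 0.923) and -0.33 ± 0.20 for Cdkn1c (-0.76 to 0.10, adjusted p = 0.685). The intervals include 0, and 0 of 13370 genes passed this test after adjustment, with 1133 (8.47%) at an unadjusted p below 0.05.

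The imprinted neighbours in the domains of these genes were read next, 29 in the tables and 14 past the filter in tumors. Their median log2 difference was -0.04, 0 were higher and 1 was lower without overlap, Airn, beside 22.1% of all tested genes in either direction. After rescaling to the same total Cobl was lower without overlap too. The most abundant, Cd81, a tetraspanin, had 106, 95.1 and 88.4 FPKM in APCmin/+ and 128, 102 and 133 FPKM in APCmin/+;ieCtnnb1KO tumors, with a log2 difference of 0.31 ± 0.13. Cobl, an actin nucleator beside Grb10, had a log2 difference of -0.36 ± 0.15 and Tssc4 of 0.32 ± 0.17, all with overlapping groups. In crypts 12 passed, with a median of 0.02 and 2 higher without overlap, beside 6.79% of all tested genes. At an unadjusted limma p below 0.05 were 3, all higher, beside 3.48% of all tested genes. Ddc, the decarboxylase that makes dopamine and serotonin and lies beside Grb10, had 17.998, 17.3 and 16.8 FPKM in wild-type and 30.5, 25.9 and 23.5 FPKM in ieCtnnb1KO crypts (log2 difference 0.60 ± 0.13, limma adjusted p = 0.728). Slc22a18, a transporter of the Cdkn1c domain and the most abundant there, had 28.7, 39.3 and 37.9 FPKM against 54.0, 47.5 and 53.4 FPKM (0.55 ± 0.15, limma adjusted p = 0.757). In tumors both of these overlapped. Cd81 (0.46 ± 0.19) and Copg2 (0.20 ± 0.16) overlapped in crypts.

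Of 33 other imprinted genes, 19 passed the filter in tumors, with a median log2 difference of 0.01, and 1 was higher and 1 lower without overlap, beside 11.4% and 10.6% of all tested genes. Dcn, the matrix proteoglycan decorin and the most abundant of them, was higher without overlap, with 31.8, 26.1 and 30.2 FPKM against 33.7, 44.5 and 38.7 FPKM (0.40 ± 0.13, limma adjusted p = 0.302); it is also a fibroblast marker. Ube3a, a ubiquitin ligase, was lower without overlap, with 3.19, 3.72 and 3.59 FPKM against 2.62, 3.02 and 2.78 FPKM (-0.27 ± 0.12, limma adjusted p = 0.354). Mcts2 (-0.22 ± 0.11) and Ppp1r9a (-0.30 ± 0.15) overlapped. In crypts 16 passed, with a median of -0.03, and 1 was without overlap, beside 11.9% of all tested genes. This was Snrpn, a splicing factor gene, with 1.97, 3.82 and 3.13 FPKM in wild-type and 6.54, 5.09 and 5.01 FPKM in ieCtnnb1KO libraries (0.83 ± 0.23, limma adjusted p = 0.757). Blcap, the most abundant there (0.12 ± 0.15), Dcn (-0.59 ± 0.36), Trappc9 (0.20 ± 0.13) and Peg13 (-0.28 ± 0.22) overlapped.

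The IGF axis, the receptors, binding proteins and proteases that set how much IGF reaches a cell, had 17 of 18 genes past the filter in tumors, 4 higher and 1 lower without overlap, beside 11.4% and 10.6% of all tested genes, with a median log2 difference of 0.09. At an unadjusted limma p below 0.05, 3 were higher and 0 lower, beside 8.46% and 6.0% of all tested genes. In the same tumors all 9 fibroblast markers past the filter had differences above 0, 6 of them at an unadjusted limma p below 0.05. Of 10 genes listed as endothelial markers, 4 were higher and 1, Prox1, lower without overlap. Igfbp7, a secreted binding protein of vessels and stroma and the most abundant, had 269.7, 213 and 209.8 FPKM in APCmin/+ and 303, 345 and 341 FPKM in APCmin/+;ieCtnnb1KO tumors (0.52 ± 0.14, limma adjusted p = 0.274). Igfbp6, which prefers IGF2, had 2.72, 3.11 and 2.65 FPKM against 4.08, 5.21 and 6.92 FPKM (0.80 ± 0.19, limma adjusted p = 0.269). Stc2, an inhibitor of the protease that frees IGF from its binding proteins, was higher (0.57 ± 0.18), as was Igf1r, the receptor of IGF1 and IGF2 (0.26 ± 0.13), while Insr was lower (-0.31 ± 0.15), all 3 without overlap. Igf1r falls outside the rule for named genes and was named after its values were seen. In crypts 7 genes passed, of which Igfbp3 did so only through its wild-type libraries (mean 0.709 FPKM against 0.418 FPKM in the knockout), so no median is read from them. For Igf1r (-0.01 ± 0.22) and Insr (-0.01 ± 0.15) the differences were close to 0, and 1 of the 7 was lower without overlap, beside 5.15% of all tested genes. Igfbp4, the most abundant, was lower without overlap, with 19.7, 15.3 and 15.7 FPKM against 12.5, 13.9 and 10.4 FPKM (-0.45 ± 0.16, limma adjusted p = 0.806), and overlapped once rescaled to the same total. Igfbp6 (-0.93 ± 0.42), Igfbp7 (-0.60 ± 0.30) and Irs2 (-0.28 ± 0.18) overlapped. The fibroblast marker sum of crypts stood beside them at 8.53, 6.50 and 8.13 FPKM in wild-type and 4.26, 6.78 and 4.04 FPKM in ieCtnnb1KO crypts. Igfbp6 had 11.4, 6.65 and 14.4 FPKM against 3.76, 9.82 and 3.65 FPKM. Of the 5 mesothelial markers, Upk3b had 2.54, 1.02 and 2.82 FPKM against 0.887, 2.43 and 0.948 FPKM. Msln had 2.17, 1.11 and 2.26 FPKM against 0.726, 2.17 and 0.842 FPKM. Lrrn4 had 1.34, 0.739 and 0.962 FPKM against 0.215, 0.498 and 0.307 FPKM, and passed the filter only through its wild-type libraries. Krt19, also an epithelial marker, went the other way, with 767, 689 and 690 FPKM against 883, 1227 and 717 FPKM. Wt1 was under the filter. The part of the cell type markers in the IGF axis values of either tissue was not tested.

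Fetal growth genes and RNA-binding partners of H19 and Igf2 gave no tumor gene without overlap among 6 past the filter, beside 22.1% of all tested genes (median -0.08). Khsrp, an RNA-binding protein and the most abundant (0.12 ± 0.08), Zhx2, a postnatal repressor of H19 and Afp in liver (0.16 ± 0.10), Elavl1 (0.14 ± 0.14) and Afp, α-fetoprotein (-0.33 ± 0.32), all overlapped. In crypts 1 of 7 was without overlap, beside 11.9% of all tested genes. This was Zhx2, with 4.30, 4.01 and 3.83 FPKM in wild-type and 4.39, 5.09 and 4.69 FPKM in ieCtnnb1KO libraries (0.20 ± 0.12, limma adjusted p = 0.89), and it overlapped under either rescaling. Khsrp (-0.01 ± 0.14), Gpc3 (-0.36 ± 0.31), Afp (-0.20 ± 0.23) and Elavl1 (0.16 ± 0.24) overlapped there.

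The keepers and readers of imprints include CTCF, which binds the control region between H19 and Igf2, the methyltransferases that copy methylation, the TET enzymes that remove it, and zinc finger proteins that hold it at imprinted sites. In tumors 14 of 18 passed the filter, 6 lower and 1 higher without overlap, with a median of -0.09. Over all tested genes these shares were 10.6% and 11.4%, or 13.8% and 8.63% after rescaling to the same total, and 2 lower and 1 higher of the 14 had an unadjusted limma p below 0.05, beside 6.0% and 8.46% of all tested genes. Ctcf had 23.5, 22.8 and 23.6 FPKM in APCmin/+ and 21.98, 21.4 and 21.8 FPKM in APCmin/+;ieCtnnb1KO tumors (-0.10 ± 0.07), so the groups were apart by little. Tet3 had 15.6, 15.4 and 16.9 FPKM against 12.015, 14.3 and 12.4 FPKM (-0.30 ± 0.10, limma adjusted p = 0.302) and Tet2 had 4.48, 4.11 and 5.01 FPKM against 3.64, 3.64 and 2.91 FPKM (-0.37 ± 0.13, limma adjusted p = 0.316). Ezh2 (-0.25 ± 0.11), Zfp445 (-0.26 ± 0.13) and Smchd1 (-0.18 ± 0.11) were the other lower genes (Ctcf, Zfp445 and Smchd1 named after their values were seen), and Zfp57, with 2.79, 2.43 and 2.61 FPKM against 3.05, 3.71 and 3.59 FPKM, was the higher one (0.34 ± 0.12, limma adjusted p = 0.32). Trim28, the partner of ZFP57 and the most abundant, overlapped (0.00 ± 0.13). In crypts 0 of 13 were without overlap, beside 5.15% of all tested genes lower and 6.79% higher, and the median was 0.01. Rescaled without the 50 highest genes, 4 were lower without overlap, beside 7.43% of all tested genes. As deposited, Trim28 (0.15 ± 0.24), Ezh2 (0.15 ± 0.12), Zfp445 (-0.13 ± 0.11), Tet2 (-0.19 ± 0.17) and Dnmt3a (-0.16 ± 0.15) all overlapped.

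**Figure D4:**
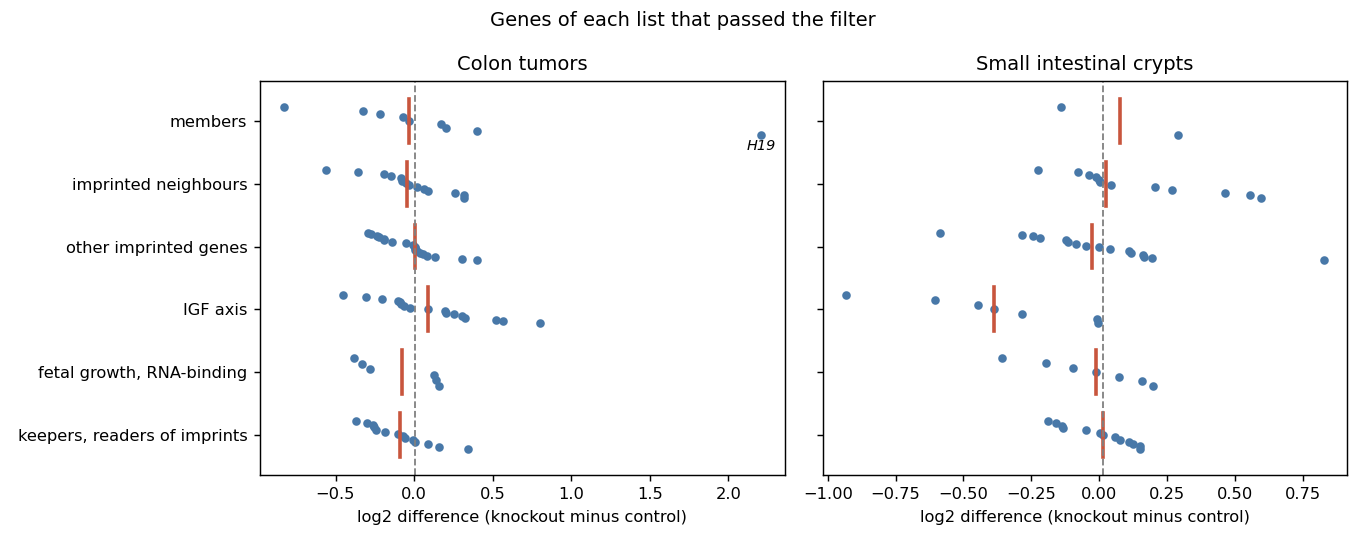
Log2 difference, knockout minus control, of every gene past the filter in each list, in tumors (left) and crypts (right; the axes differ); points are genes, red lines are list medians and the dashed line is the median of all tested genes. H19 stands alone at 2.21 in tumors, and in crypts Snrpn has the highest difference of the plotted genes, 0.83.

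The genes most like H19 across the 6 tumor libraries were Gpr137b (Pearson r = 0.997), St3gal2 (r = 0.996), Kcnmb1 (r = 0.993), Slc9a3r1 (r = 0.991) and Ptpn11 (r = 0.991), among 12881 protein-coding or long noncoding genes with a mean of at least 1 FPKM, on log2(FPKM + 0.5). Gpr137b, the first, had 8.27, 6.91 and 7.60 FPKM in APCmin/+ and 10.2, 12.2 and 12.4 FPKM in APCmin/+;ieCtnnb1KO tumors. Its range was narrower than that of H19, and 126 genes had an r above 0.95 over these 6 libraries, which lie in separate groups.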

How the data were processed

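RNA-seq of 12 libraries was used. Per the labels and the study's methods, reads were trimmed and aligned with HISAT2 to mm10. The study's methods name featureCounts for counting, while the submitters' processing notes list Cufflinks 2.2.1, and which made the values was not settled; the use of strand is not given in the sources used here. The authors deposited FPKM per gene, a table per tissue, each normalized separately. FPKM times length came out as whole fragments (tolerance 0.05) for 100% of non-zero values. Each table was fitted in limma 3.58.1 (R 4.3.3) on log2(FPKM + 0.5) with a variance trend, keeping genes whose FPKM averaged 0.5 or more (16743 in tumors, 14176 in crypts), Benjamini-Hochberg adjusted at 0.05, with an interaction fit over 13370 genes, and tested on simulated data. Differences on this scale understate those of low genes. The exact two-sided permutation test cannot go below p = 0.1. Members and lists were chosen with earlier results of these data known. Named by rule were the 10 members and, per list and tissue, the most abundant gene and up to 4 with the smallest p. Libraries of a group differed by more than counting noise. GENCODE M21 gave exons for 54495 of 54532 genes. Alternatives changed the pseudocount, filter, scaling, variance trend, tool, replicate block and each library; leaving out both Xist libraries and counting unshared exons only were chosen after seeing the data. A marker result is not reported here.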

Additional observations from a re-analysis of the deposited data

Results flagged for a closer look

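Gata4, a factor of the small intestine, was lower in all 3 knockout tumors than in any control and higher in all 3 knockout crypts, with a log2 difference of -0.18 in tumors and 0.40 in crypts. In tumors it had 0.0791, 0.0931 and 0.0514 FPKM in APCmin/+ and 0, 0 and 0.0164 FPKM in APCmin/+;ieCtnnb1KO libraries, from 5, 6 and 3 and from 0, 0 and 1 fragments, and in crypts 30.7, 20.4 and 25.8 FPKM against 37.5, 31.1 and 32.0 FPKM (limma adjusted p = 0.849). The crypt groups were apart by little and overlapped under either rescaling of the libraries. The difference between the tissues was not tested, since the gene was under the filter in tumors.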

How the results depend on the processing

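In limma, 0 genes passed adjustment in tumors, in crypts and for the difference between tissues, with 2421, 829 and 1133 at an unadjusted p below 0.05, and voom gave 0 in each tissue, with 2541 and 805. Without the variance trend 1 tumor gene passed, and for the difference 1 passed with a pseudocount of 0.1 and 1 with the replicate block. With each library left out the adjusted counts ran from 0 to 0 in tumors, 0 to 3 in crypts (3 without wild-type replicate 3) and 0 to 0 for the difference. The counts at an unadjusted limma p below 0.05 ran from 1399 to 2755 in tumors, 462 to 1344 in crypts and 751 to 1723 for the difference. What moved these counts was not tested. Same-numbered libraries had correlations of their deviations of 0.0541, -0.0898 and 0.0525 in tumors and -0.0466, -0.122 and 0.037 in crypts. These values showed no pairing by number, but with groups of 3 libraries they cannot exclude one. With the replicate block 0 genes passed in tumors and 0 in crypts. With each library left out, the log2 difference of H19 in tumors ran from 2.01 to 2.44. The median of all members past the filter, H19 included, was -0.0356 with every library and ran from -0.136 to 0.0462. Of 1240 values of 78 single-gene results under alternatives, 27 had the other sign and 0 passed the threshold. Without both Xist libraries, chosen after seeing the data, Cdkn1c was at 0.0498 and Trim28 at -0.0385 in tumors. Under quantile normalization Khsrp was at -0.0073 and Trim28 at -0.17 in tumors, and Trim28 at -0.005 in crypts. Rescaled to the same total, Trim28 was at -0.041 in tumors (-0.0417 without the 50 highest genes) and Khsrp at 0.0147 in crypts. Left-out libraries turned signs in tumors for Cdkn1c (-0.1062 to 0.0462), Dlk1 (-0.5006 to 0.5298), Peg3 (-0.136 to 0.4198), Trim28 (-0.0993 to 0.109) and Ctsd (-0.0902 to 0.0511). In crypts they did for Blcap (-0.0038 to 0.2481), Khsrp (-0.0861 to 0.1038), Elavl1 (-0.0921 to 0.376), Trim28 (-0.115 to 0.3579), Lsp1 (-0.0388 to 0.1745) and Mrpl23 (-0.1553 to 0.0517), and for the Igf2r difference between tissues (-0.0169 to 0.1621). Other tumor differences moved without turning sign, among them Mest (-0.3876 to -0.0562), Grb10 (-0.4935 to -0.1918), Meg3 (0.248 to 0.516) and Lsp1 (0.0684 to 0.4756). The causes were not tested. Groups of 3 libraries, shared exons and fragments in single digits for Igf2 and crypt H19 limit what can be read.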

Other observations

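The genes listed as endothelial markers summed in tumors to 135, 133 and 152 FPKM in APCmin/+ and 133, 134 and 131 FPKM in APCmin/+;ieCtnnb1KO libraries. Of these 10 genes 4 were higher without overlap (Plvap, Pecam1, Esam and Emcn) and 1 lower, Prox1, the most abundant, beside 11.4% and 10.6% of all tested genes. Prox1 had 55.7, 63.4 and 87.4 FPKM against 38.1, 46.8 and 37.65 FPKM, opposite to those 4, so the sum does not show their direction. Cdh5, another gene of the list, lay between 12.2 and 14.2 FPKM in tumors, far under Prox1. Which cells made the Prox1 RNA was not tested, so it is not read here as a measure of endothelium. The genes listed as colon markers, led by the mucin Muc2, summed to 304, 356 and 354 FPKM against 469, 727 and 600 FPKM. Muc2 is not particular to colon here, with 283, 394 and 242 FPKM in wild-type crypts of the small intestine. In tumors it had 151, 122.5 and 114 FPKM against 259, 419 and 295 FPKM. Of the 7 colon genes only Muc2 and Car1 were higher without overlap, beside 11.4% of all tested genes. The other 5 overlapped, among them Hoxd13 with a log2 difference of -1.54. Adipocyte markers summed to 1.25, 1.62 and 1.77 FPKM against 2.78, 2.52 and 3.20 FPKM, nearly all of it Fabp4, with Lep and Adipoq at 0. Skeletal muscle markers overlapped, with Myog, Myod1, Myh1 and Myh4 at 0. The part of these markers in the results above was not tested.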
